A study of Mus musculus with 6 samples.

Results

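The G1 cyclins and their kinases were followed in mouse embryonic stem cells (ESCs) with and without miR-302. The set was defined by name as the D-type cyclin genes Ccnd1, Ccnd2 and Ccnd3, the E-type cyclin genes Ccne1 and Ccne2, and the kinase genes Cdk2, Cdk4 and Cdk6. Of these 8 genes, 7 had an array row that lists a single gene, out of 22180 genes with such a row. Ccne2 was not analysed here, because its row also lists Ints8 and its signal cannot be assigned to either gene.

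All 6 samples were ESCs labelled Dgcr8-/-. Dgcr8 binds primary miRNA transcripts for the nuclease Drosha, and cells that lack it cannot cut these transcripts into canonical miRNAs. The control group is 3 samples with a control hairpin. In the miR-302 group, also 3 samples, the cells carried the hairpin sh-miR-302 and expressed mimics of miR-302. Both groups therefore lack their own canonical miRNAs, and by their labels they differ in the hairpin and in miR-302. The samples of a group are described as independent biological samples, and nothing in the labels says whether they came from different ESC lines or clones, or which member of the miR-302 family was expressed. The Dgcr8 row also lists a miRNA gene and was not used, so the knockout was not checked here.

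D-type cyclins are made in response to growth signals and activate CDK4 and CDK6, which phosphorylate the retinoblastoma family of pocket proteins. E-type cyclins then activate CDK2, which completes that phosphorylation, frees E2F transcription factors and starts DNA replication. In mouse ESCs, G1 is short and cyclin E with CDK2 is active for most of the cycle, and miRNAs with the seed of miR-302 are known to promote passage from G1 into S phase in these cells.

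The sequences of the miR-302 family are shown because the seed, the stretch of bases 2 to 8 that pairs with target transcripts, is what joins these miRNAs to those that ESCs normally hold most of. RefSeq sequences (GRCm38.p6) were found for 3 of the 3′ arms of the family. They lie on the plus strand, miR-302b-3p at chr3:127545275-127545297, miR-302c-3p at chr3:127545406-127545427 and miR-302d-3p at chr3:127545665-127545687. Each is written 5′ to 3′ with bases 2 to 8 in capitals.
mmu-miR-302b-3p: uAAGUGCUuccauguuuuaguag
mmu-miR-302d-3p: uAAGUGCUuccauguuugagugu
mmu-miR-302c-3p: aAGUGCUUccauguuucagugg
mmu-miR-291a-3p: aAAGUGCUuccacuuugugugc
mmu-miR-294-3p: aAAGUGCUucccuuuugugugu
mmu-miR-295-3p: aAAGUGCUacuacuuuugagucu
The last 3 belong to the miR-290 cluster, which is abundant in ESCs and not made without Dgcr8. Of 1679 mature miRNA names in the RefSeq table, 5 have AAGUGCU at bases 2 to 8, the sequences above other than miR-302c-3p. In the listed form of miR-302c-3p the same letters begin 1 base earlier, so bases 2 to 8 read AGUGCUU.

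Expression was measured on single-colour arrays, and values are log2 expression levels, so that a difference of 1 is a doubling. Array medians lay between 5.60 and 5.62, and 3 arrays a group limit the precision of every value. The control arrays correlated with each other at 0.996 to 0.997 over all genes. The array of miR-302 replicate 1 differed more from its group, at 0.990 with each of them against 0.996 between them. Some changes and counts are also given without it. A change given only with it may have moved too. Without it the log2 change of Myc went from 1.42 to 1.61 and that of E2f6 from 0.59 to 0.51. Genes were tested with limma, with Benjamini-Hochberg adjustment over all 22180 genes, and a gene is called when its adjusted p is under 0.05. Levels on different rows depend on their probes, so which of the genes is expressed most cannot be read from them, and only changes are compared between genes.

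With miR-302, the 3 D-type cyclin genes moved in different directions and by different amounts. Ccnd2 fell 8.92-fold and Ccnd1 1.46-fold, while Ccnd3 rose 1.47-fold. Of the kinase genes Cdk2 was lower, 1.27-fold, and Cdk4 and Cdk6 were not called. Ccne1, the cyclin partner of CDK2, was not called. In all, 4 of the 7 measured genes were called, 1 higher and 3 lower, where 16.4% of all genes were called, 7.18% higher and 9.25% lower. The groups did not overlap for 6 of the 7 genes, 1 higher and 5 lower, where the groups of 35.8% of all genes did not overlap, 16.8% higher and 19.0% lower. The median log2 change of the 7 genes was −0.34, against 0.01 over all genes. The genes were chosen with results of these arrays known, so these shares describe them and test nothing.

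**Figure D1:**
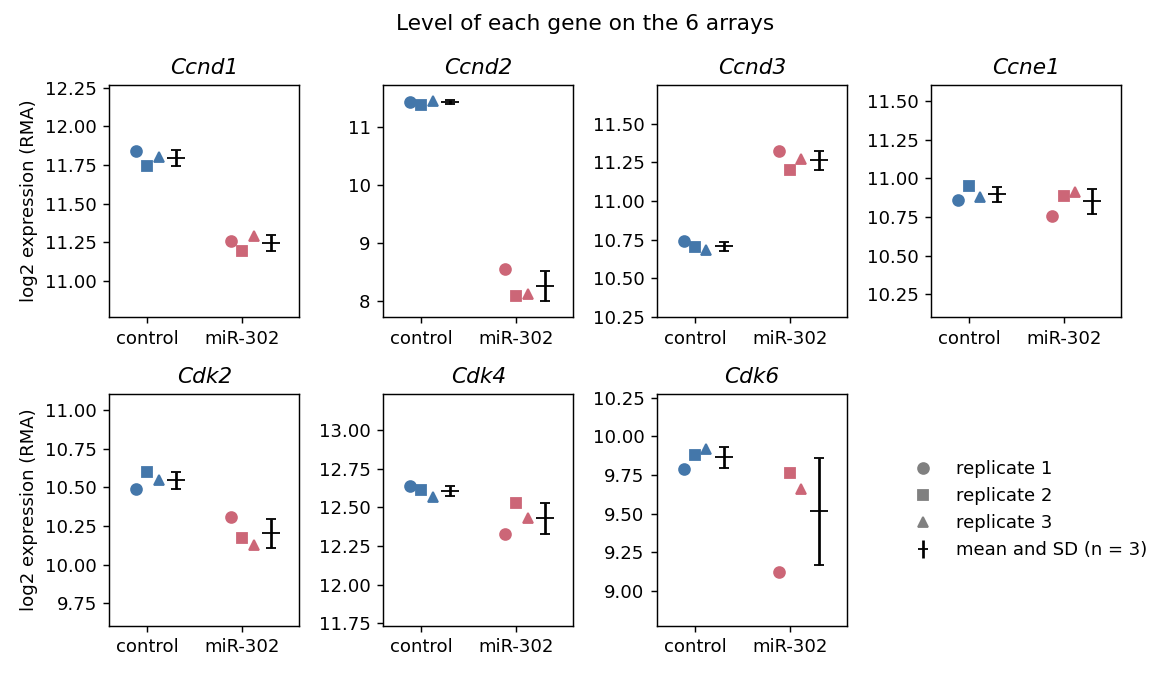
Log2 expression level of each gene on the 6 arrays, with a separate vertical scale for each gene; symbols mark the replicate, and the black bar gives the mean and SD of each group (n = 3). Ccnd2 lies between 11.38 and 11.44 in the control samples and between 8.09 and 8.56 with miR-302, while the miR-302 values of Cdk6 are spread by replicate 1 at 9.12.

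Ccnd2 encodes cyclin D2 and is a reported target of miR-302. Its level was 11.43, 11.38 and 11.44 in control replicates 1, 2 and 3 and 8.56, 8.09 and 8.13 in miR-302 replicates 1, 2 and 3. The control values lay close together, and the highest miR-302 value, that of replicate 1, was still far below the lowest control value. The log2 change was −3.16 ± 0.13 (SE), with a 95% confidence interval of −3.47 to −2.84 (limma, adjusted p = 0.000124). Among the 22180 genes it ranked 3 from the most negative change. The change from the control mean was −2.86 in miR-302 replicate 1 and averaged −3.31 in replicates 2 and 3. Leaving out any 1 array gave changes between −3.31 and −3.07, and Ccnd2 was called in each of these 6 fits.

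Ccnd1 encodes cyclin D1, which couples growth factor and Wnt signals to the cell cycle. Its level was 11.84, 11.74 and 11.80 in the control samples and 11.26, 11.19 and 11.29 with miR-302. The groups were separated by many times their own spread, and miR-302 replicate 1 lay between the other two. The change was −0.55 ± 0.07 (SE), with an interval of −0.71 to −0.38 (adjusted p = 0.00410). It was called in each of the 6 fits that left out 1 array, with changes from −0.57 to −0.52.

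Ccnd3 encodes cyclin D3, the third of the proteins that activate CDK4 and CDK6. Its level was 10.74, 10.70 and 10.68 in the control samples and 11.32, 11.20 and 11.27 with miR-302. Every miR-302 value was above every control value. The rise was 0.56 ± 0.07 (SE) on the log2 scale, with an interval of 0.39 to 0.72 (adjusted p = 0.00373). Without any 1 array it stayed between 0.53 and 0.59 and was called. Ccnd1 and Ccnd3 were no longer called when a fold change of at least 1.5 was tested for, while Ccnd2 was. Their estimates, 1.46-fold and 1.47-fold, lie under 1.5, so that test could not call them.

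**Figure D2:**
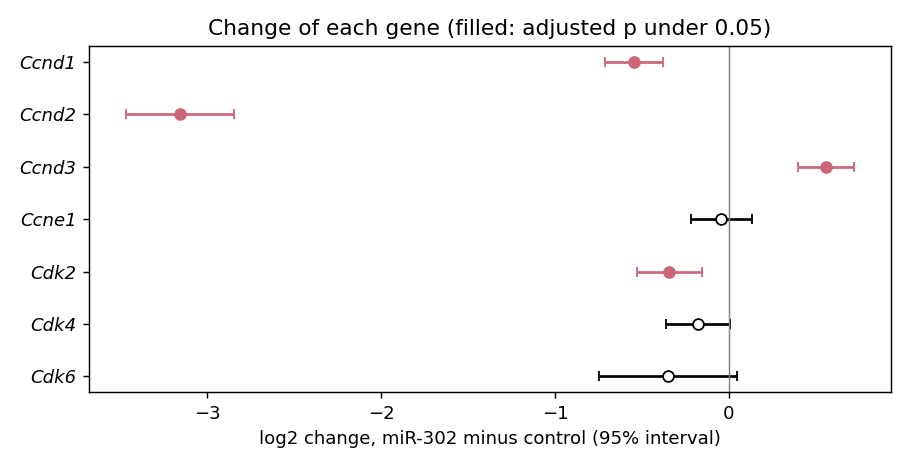
Log2 change (miR-302 minus control) of the 7 measured genes on the horizontal axis, with 95% confidence intervals from limma; filled symbols are genes with an adjusted p under 0.05. Ccnd2 lies far to the left at −3.16, Ccnd1 and Cdk2 left of 0 and Ccnd3 right of 0, and the intervals of Ccne1, Cdk4 and Cdk6 include 0.

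The differences between the D-type genes were also measured within each array, where a shift between groups in the log2 difference of a pair of genes shows unequal change. Ccnd2 minus Ccnd1 shifted by −2.61 with miR-302, against an SD of that difference of 0.03 in the control and 0.25 in the miR-302 samples (n = 3 each). Ccnd2 minus Ccnd3 shifted by −3.71 (SD 0.04 and 0.21), and Ccnd1 minus Ccnd3 by −1.10 (SD 0.04 in each group). In each of these pairs the groups did not overlap, and the exact permutation test (two-sided) gave p = 0.1, the smallest that 3 samples against 3 allow, and 0.133 after Benjamini-Hochberg adjustment over the 4 pairs compared. No p under 0.05 can be reached by this test. For the fourth pair, Cdk4 minus Cdk6, the shift was 0.17, the groups overlapped, and the exact permutation p was 0.4.

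Ccne1 encodes cyclin E1, the partner of CDK2 at the entry into S phase. Its level was 10.86, 10.95 and 10.88 in the control samples and 10.76, 10.89 and 10.91 with miR-302, and the groups overlapped. The log2 change was −0.04 ± 0.07 (SE; adjusted p = 0.755), with an interval of −0.22 to 0.13. The interval holds changes of either sign, so a small change either way is compatible with these arrays. Without miR-302 replicate 1 the change was 0.00, and it was not called in any of the 6 fits that left out 1 array.

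Cdk2 encodes the kinase that cyclin E activates. Its level was 10.49, 10.60 and 10.55 in the control samples and 10.31, 10.17 and 10.13 with miR-302. The groups did not overlap, and miR-302 replicate 1 was nearest to the control samples. The change was −0.34 ± 0.08 (SE), with an interval of −0.53 to −0.16 (adjusted p = 0.0285). This call held without miR-302 replicate 1 (−0.40, adjusted p = 0.0101) and was lost without any 1 of the other 5 (adjusted p from 0.0706 to 0.102) and with the replicate number as a block (adjusted p = 0.0827).

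Cdk4 encodes a kinase that D-type cyclins activate. Its level was 12.64, 12.61 and 12.57 in the control samples and 12.33, 12.53 and 12.43 with miR-302, all 3 below the lowest control value. This log2 change of −0.18 ± 0.08 (SE), with an interval of −0.36 to 0.01, was not called (adjusted p = 0.181). It was −0.13 without miR-302 replicate 1 (adjusted p = 0.244). With limma's intensity trend and robust prior it was called (adjusted p = 0.0422).

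Cdk6 encodes the second kinase of D-type cyclins. Its level was 9.79, 9.88 and 9.92 in the control samples and 9.12, 9.76 and 9.66 with miR-302. The groups did not overlap, but replicate 1 alone was far lower than the rest, and replicates 2 and 3 lay just under the lowest control value. The log2 change was −0.35 ± 0.17 (SE), with an interval of −0.75 to 0.05, and was not called (adjusted p = 0.217). Without miR-302 replicate 1 it was −0.15 (adjusted p = 0.205), so that most of the change with all arrays came from that array.

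**Figure D3:**
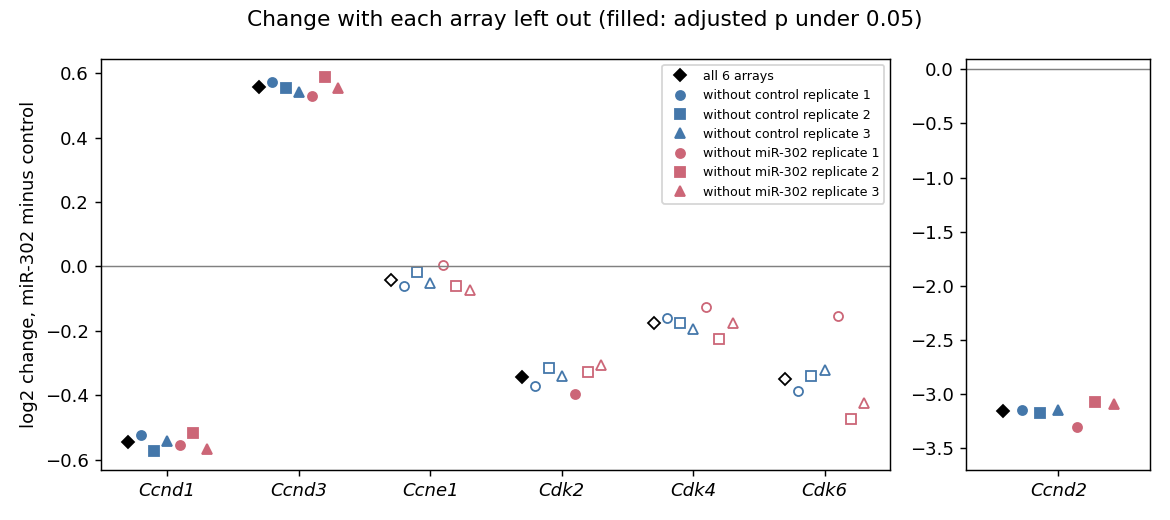
Log2 change (miR-302 minus control, vertical axis) of each gene with all 6 arrays and with each array left out; Ccnd2 has its own scale on the right, and filled symbols have an adjusted p under 0.05. The symbols of Ccnd1, Ccnd2 and Ccnd3 stay filled throughout, those of Cdk2 are filled with all arrays and without miR-302 replicate 1, and Cdk6 moves from −0.35 to −0.15 without that array.

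The genes next to the called members were examined by their order in the RefSeq gene table of GRCm38.p6. On either side of Ccnd2 the nearest measured protein-coding genes are Tigar, a regulator of sugar metabolism, and Parp11. Tigar had levels of 9.09 ± 0.10 (SD, n = 3) and 8.99 ± 0.15 in the control and miR-302 groups and Parp11 of 7.80 ± 0.06 and 7.90 ± 0.04, and neither was called (adjusted p = 0.574 and 0.394). Around Ccnd3, 2 of the 3 genes were higher. Bysl, a ribosome assembly gene whose span overlaps that of Ccnd3, rose by 0.30 ± 0.08 (SE; adjusted p = 0.0463), and Med20, a Mediator subunit gene on 1 side, rose by 0.44 ± 0.06 (adjusted p = 0.00636), while Taf8 on the other side was not called (adjusted p = 0.988). Next to Ccnd1, Fgf15 changed by −1.12 ± 0.35 and was not called (adjusted p = 0.0763). Pmel, which overlaps the span of Cdk2, was lower by 0.47 on the log2 scale in miR-302 cells (adjusted p = 0.0465), and Dgka beside Cdk2 was higher by 0.66. Of all 18 such genes around the 7 measured members, 3 were higher, 2 lower and 13 not called, where 16.4% of all genes were called. Which strand and which transcript the probes of an overlapping gene read was not tested.

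The genes whose profiles over the 6 arrays were most like those of the called members were sought among 10565 other genes at or above the median level. Genes with provisional symbols, such as Gm numbers, Rik and LOC, were left out. Likeness was the root mean square difference of log2 values, each gene taken relative to its own control mean. For Ccnd2 the nearest were Lefty2 (difference 0.21), the atypical cadherin gene Fat2 (0.25), Igfbp7 (0.36), Lefty1 (0.47) and the matrix protein gene Tgfbi (0.48). They changed by −2.97, −2.89, −2.66, −2.66 and −2.59 on the log2 scale. This likeness mostly follows the size of the change, so changes near that of Ccnd2 were fixed by the choice. Shared regulation was not tested. Lefty1 and Lefty2 encode secreted Nodal antagonists and are reported targets of miR-302. The nearest profiles were those of Mfsd10, Tfap4 and Scarb1 for Ccnd1 (differences of 0.020 to 0.030), of Hdac6, Sdc4 and F2r for Ccnd3 (0.028 to 0.033), and of Cenpi, Lancl1 and Ankmy2 for Cdk2 (0.016 to 0.022). Many of the 22180 genes changed at least as much: Ccnd1 ranked 1160 from the most negative change and Ccnd3 900 from the most positive.

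The other genes of the G1 and S pathway were taken in 9 lists with 92 measured genes, of which 9 were higher (9.78%) and 14 lower (15.2%), where 7.18% and 9.25% of all genes were. With miR-302 replicate 1 removed these counts were 12 and 21, and the shares of all genes also rose, to 11.2% and 13.1%. When 1 of the other arrays was removed they were 2 or 3 and 6 to 8. Of 7 inhibitors of cyclin-dependent kinases, 1 rose, 1 fell and 5 were not called, with a median log2 change of 0.00. Cdkn1b, which encodes the inhibitor p27 of cyclin E with CDK2, fell from 8.76 ± 0.04 (SD, n = 3) to 8.21 ± 0.09, by 0.55 ± 0.07 on the log2 scale (SE; adjusted p = 0.00515). Cdkn1c, which encodes the related inhibitor p57 and is imprinted, rose by 1.90 ± 0.46 (adjusted p = 0.0353). It was 5.46, 6.01 and 5.84 in the control samples and 6.52, 8.28 and 8.20 with miR-302, so that replicate 1 stood between the control samples and the other miR-302 samples. The call needed each of the other 5 arrays, and without replicate 1 the change was 2.47.

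The 3 pocket proteins, which G1 cyclins and their kinases phosphorylate, were all below their control range, as were 19.0% of all genes. Rbl2 changed by −0.76 ± 0.14 (SE) and Rbl1 by −0.48 ± 0.07, and both were called, where 9.25% of all genes were called lower. Rb1 had levels of 9.49 ± 0.02 (SD, n = 3) and 9.20 ± 0.14 in the control and miR-302 groups and was not called (adjusted p = 0.0720). The call of Rbl1 held in all 6 fits that left out 1 array, and that of Rbl2 in 2 of them. All 3 were called lower once miR-302 replicate 1 was removed. Of the 10 genes of E2F factors, several of which bind pocket proteins, and of their DP partners, E2f2 was lower (−0.91 ± 0.10 SE, adjusted p = 0.00250) and E2f6, a repressor of the family that does not bind pocket proteins, was higher (0.59 ± 0.09 SE, adjusted p = 0.00714). The other 8 were not called, where 7.18% of all genes were higher and 9.25% lower. The median log2 change of the 10 was −0.10. The calls of E2f2 and E2f6 held in all 6 fits with an array removed, and without miR-302 replicate 1 there were 1 higher and 3 lower.

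Among 6 genes that help to activate the kinases, Cks1b, which encodes a small subunit of cyclin-dependent kinases that also serves in the destruction of p27, fell by 0.78 on the log2 scale (adjusted p = 0.0132). Cdc25a, a phosphatase gene that removes inhibitory phosphates from CDK2, went from 9.93 ± 0.04 (SD, n = 3) to 10.18 ± 0.04, a rise of 0.25 ± 0.07 (SE; adjusted p = 0.0465). Over all genes 7.18% were higher and 9.25% lower. Over the 6 fits with an array removed, the call of Cks1b was lost in 2 and that of Cdc25a in 5. None of 9 genes of cyclin turnover was called, and 3 had an unadjusted p under 0.05 (limma), where 30.2% of all genes had, with log2 changes from −0.29 for Fzr1 (unadjusted p = 0.00833, limma) to 0.19 for Ambra1, a factor in the destruction of D-type cyclins (unadjusted p = 0.0263). Without miR-302 replicate 1, 1 of the 9 was lower. These genes, outside the naming rule, were picked with their values in view.

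Of 7 genes taken as inducers of D-type cyclins, Myc and Lef1 rose and 5 were not called, where 7.18% of all genes were higher. Myc, a growth-promoting transcription factor gene, was 7.36, 7.46 and 7.63 in the control samples and 8.52, 9.0 and 9.18 with miR-302. It rose by 1.42 ± 0.17 on the log2 scale (SE; adjusted p = 0.00373). The groups were well apart, and Myc was called in all 6 fits that left out 1 array. Lef1, a transcription factor gene of the Wnt pathway, rose by 0.89 ± 0.20 (adjusted p = 0.0280), a call lost in 4 of these fits, and by 0.70 without miR-302 replicate 1, where 3 of the 7 genes were higher.

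Cdk4 is a known MYC target, and the 300 bases around its start, from 250 before to 50 after, are shown because they hold several copies of CACGTG, the E-box that MYC with MAX binds. The sequence is from RefSeq (GRCm38.p6, chr10:127063285-127063584, plus strand), with CACGTG in capitals. The motif reads the same on both strands.
Cdk4: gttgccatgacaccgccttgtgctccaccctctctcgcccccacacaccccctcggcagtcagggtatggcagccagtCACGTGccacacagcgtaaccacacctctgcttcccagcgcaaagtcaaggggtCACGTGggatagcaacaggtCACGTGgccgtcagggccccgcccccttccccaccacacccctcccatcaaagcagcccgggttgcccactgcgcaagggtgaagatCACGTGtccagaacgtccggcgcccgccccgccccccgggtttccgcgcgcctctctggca
It holds 4 copies. Of 32851 windows of this length in the RefSeq table, 7.15% held at least 1 copy and 8 windows (0.0244%) at least 4. The window of Cdk6 held 1 copy, and every listed window of Ccnd3, Ccne1 and Cdk2 held none. No window was available for Ccnd1, Ccnd2 or Ccne2, so the motif was not counted there. Myc was higher on the miR-302 arrays while Cdk4, given above, had no called change and an interval that ended at 0.01. Binding at these copies was not measured, and the motif was chosen after the sequence and the values were seen.

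Of 19 S phase genes that E2F factors drive, 4 fell and 15 were not called, with none higher. Over all genes 9.25% were lower and 7.18% higher. The median log2 change was −0.17, against 0.01 over all genes, and the changes ran from −0.72 to 0.16. Tk1, the thymidine kinase gene, fell from 10.41 ± 0.08 (SD, n = 3) to 9.70 ± 0.14 (adjusted p = 0.00451). Mcm6, a subunit of the replicative helicase, Rrm1, a subunit of ribonucleotide reductase, and Tyms, thymidylate synthase, changed by −0.33, −0.28 and −0.27. The call of Tk1 held in all 6 fits with an array removed, and those of the other three only without miR-302 replicate 1. With miR-302 replicate 1 removed 6 were lower, and with 1 of the others removed 1 was. Of the 19 genes, 13 had all miR-302 values below all control values, where 19.0% of all genes did.

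Among 18 other cyclin genes, 2 rose and 3 fell, where 7.18% of all genes were higher and 9.25% lower. Ccnb2 and Ccna1, cyclins of mitosis and of the germ line, changed by −0.45 ± 0.07 and −0.85 ± 0.17 (SE), Ccnjl by −0.75 ± 0.10, and Ccng1, a p53 target, rose by 0.32 ± 0.07. The calls of Ccnb2 and Ccnjl held in all 6 fits with an array removed, that of Ccna1 in 2 and that of Ccng1 in 1. Without miR-302 replicate 1, 3 of the 18 were higher and 4 lower. Ccna2, the cyclin that follows cyclin E on CDK2, was 12.03 ± 0.04 (SD, n = 3) and 11.87 ± 0.06 and was not called (adjusted p = 0.163). Among 16 other cyclin-dependent kinase genes, 2 rose (Cdk14 and the Mediator kinase gene Cdk8) and 2 fell (Cdk15 and Cdk18), with log2 changes of 0.78, 0.40, −0.49 and −0.43. Over the 6 fits with an array removed, the call of Cdk8 was lost in 5 and those of Cdk14, Cdk15 and Cdk18 in 4 each. With miR-302 replicate 1 removed, 3 of the 16 were higher and 2 lower. Cdk1, the mitotic kinase gene, was 11.60 ± 0.01 and 11.56 ± 0.07 (adjusted p = 0.756). Ccna2 and Cdk1 were picked outside the naming rule, for their roles beside cyclin E.

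**Figure D4:**
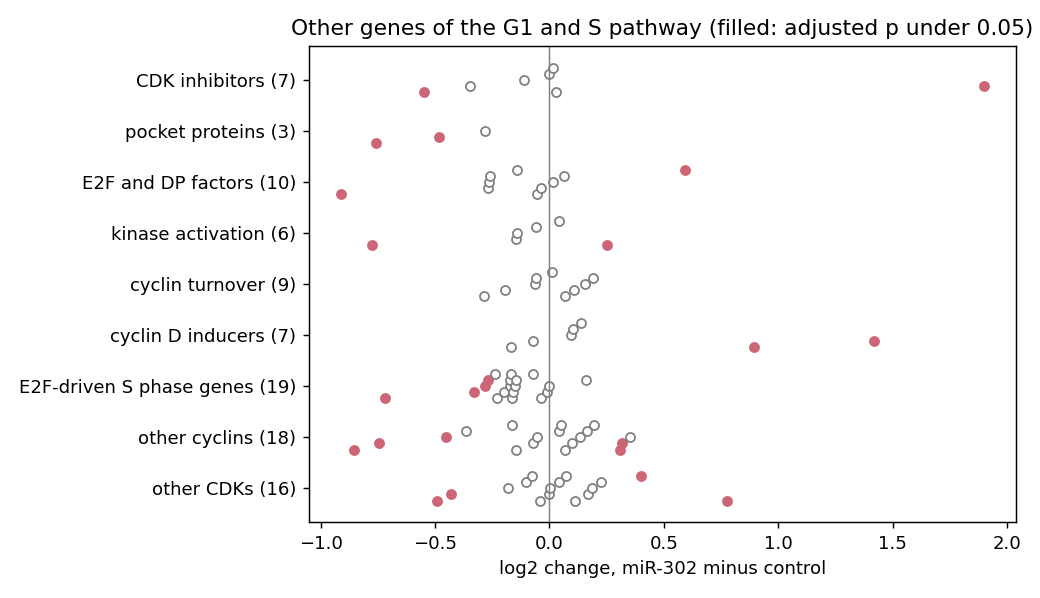
Log2 change (miR-302 minus control, horizontal axis) of each measured gene in the 9 lists of the G1 and S pathway, 1 point per gene, with the number of measured genes after each list's name; points are spread vertically for legibility, and filled points have an adjusted p under 0.05. The filled points of the E2F-driven S phase genes all lie left of 0, no cyclin turnover gene is filled, and Cdkn1c and Myc lie farthest to the right at 1.90 and 1.42.

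Markers of some other cell types moved with the groups, and in bulk samples a change in the mix of cells and a change within each cell cannot be told apart. Of 10 ESC markers none was called by limma, and their mean log2 level lay between 10.60 and 10.64 in control samples and between 10.45 and 10.78 with miR-302. An unadjusted p under 0.05 was found for 3 of them, near the 30.2% over all genes. Without miR-302 replicate 1, 3 were lower, where 13.1% of all genes were. Over all genes 7.18% were higher and 9.25% lower, the shares to set beside each of the following lists. Of 8 trophectoderm markers 6 were higher and none lower, with a mean level of 6.53 to 6.63 in control samples and 7.81 to 8.53 with miR-302. Of the 6, the keratin genes Krt18 and Krt8 rose by 4.03 ± 0.49 (SE) and 3.31 ± 0.43. Ascl2 rose by 1.82 ± 0.17, Gata3 by 1.48 ± 0.12 and Eomes by 1.36 ± 0.10. The defining factor Cdx2 rose from 5.29 to 6.15 (limma, adjusted p = 0.0177), both below the median level of all genes, 6.16. Elf5 and Tfap2c were not called (limma, adjusted p = 0.300 and 0.0602). The fit that dropped miR-302 replicate 1 called all 8 higher, where it called 11.2% of all genes higher. Fits that dropped another array called 5 or 6 of the 8. Of 8 primitive endoderm markers Lama1 (1.17), Pdgfra (0.84), Dab2 (0.63) and Foxa2 (0.25) were higher and Gata4 (−0.43) was lower in log2 change, with a mean level of 5.53 to 5.67 in control samples and 6.0 to 6.03 with miR-302. The defining factors Gata6 and Sox17 were not called. Over all arrays 5 of the 8, Pdgfra and Dab2 among them, averaged below the median level of all genes. Dropping miR-302 replicate 1 left the counts of calls as they were, and dropping another array gave 2 higher and 0 lower. Of 7 neural markers 2 were lower, Sox1 and Tubb3 (mean level 7.02 to 7.08 and 6.72 to 6.81), and the calls became 1 higher and 3 lower on dropping miR-302 replicate 1 and 1 or 2 lower on dropping another array. Of 10 fibroblast markers Thy1 was lower (mean level 5.06 to 5.15 and 5.14 to 5.24), and the calls became 1 higher and 2 lower on dropping miR-302 replicate 1, with 0 lower and at most 1 higher on dropping another array. The part of these cells in the changes of the cyclin genes was not tested.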

How the data were processed

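Total RNA of 6 samples was biotin-labelled and hybridised to single-colour arrays, per the labels. The authors deposited 1 table of 33649 rows of log2 values, which RMA made by background correction, quantile normalization and probe summary, per the submitters' processing notes. Its version, the genome build and the log base are not given in the sources; base 2 is what RMA yields. Quantile normalization hides a change common to all genes, and no detection calls were used, so low levels may be background. Groups and replicate numbers come from the sample titles.

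Rows listing a single gene in the platform annotation (23521) were kept, and the row of highest mean stood for each gene. The test was limma's (lmFit and eBayes, two-sided, Benjamini-Hochberg adjustment; limma 3.58.1, R 4.3.3). Same-numbered samples of the groups were not paired: their deviations correlated at 0.0085 to 0.019. The named pathway genes are up to 4 called genes of each list with the smallest p. Members and lists were chosen with earlier results of these data known. The fit was tested on simulated data with these arrays' levels and spread over 22180 genes: 50.7%, 84.8% and 96.6% of genes changed 1.5-fold, 2-fold and 4-fold were recovered, and 5.62% of 160 calls were false. Figures used matplotlib 3.10.9.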

Additional observations from a re-analysis of the deposited data

How the results depend on the processing

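Ccnd1, Ccnd2 and Ccnd3 kept their direction in all 16 alternatives and Ccnd2 its call. Those of Ccnd1 and Ccnd3 were lost only with a fold change of at least 1.5 (log2 changes of −0.55 and 0.56). There Ccnd2 was the 1 member called, 215 of all genes were called and 0 of the 92 pathway genes were. The estimated changes of Ccnd1, Ccnd3 and Cdk2 were under 1.5-fold, so that test could not call them. Cdk2 (−0.34) lost its call in that test, with the replicate number as a block and in the unmoderated test (adjusted p = 0.0513), and its change ran from −0.40 to −0.31 with 1 array left out. Cdk4 (−0.18) was called by an intensity trend with a robust prior, which called 36 pathway genes. Ccne1 turned from −0.04 to 0.0033 without miR-302 replicate 1, with 1 array left out it ran from −0.0717 to 0.0033, and it was not called in any of the 16. The 3643 calls over all genes became 2293 with the block, 5621 with array weights, 2341 unmoderated and 1728 to 5395 with 1 array left out. The 23 called pathway genes became 15 with the block and 8 to 33 with 1 array left out. The block changed no other member's call. The cause of these changes was not tested. Members have 1 row each, so the choice of row did not alter their values, and Ccne1 minus Ccne2 was not run, as Ccne2 has no row of its own. With 3 arrays a group, 50.7% of simulated 1.5-fold changes were recovered where far fewer genes changed than were called here. That share does not carry over to these arrays, and small changes can be missed.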
